A study of Mus musculus with 73 samples.

Results

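Class I myosins are actin motors that carry a head domain, a neck that binds calmodulin light chains, and a tail that binds the lipids of membranes. They tie the actin cortex to the plasma membrane and to vesicles, and are known for setting membrane tension, moving vesicles and shaping microvilli. Some members are found in most tissues, whereas Myo1f and Myo1g are known mainly from blood cells and Myo1a from the gut lining. The 7 genes described here are Myo1a, Myo1c, Myo1d, Myo1e, Myo1f, Myo1g and Myo1h, taken by symbol from the gene count table, which lists 37310 gene identifiers. All 7 were among the 16636 genes that held enough counts to be tested. The family was chosen by the fold changes of the 40kb allele against wild type, where Myo1f and Myo1g had some of the largest increases, so the values and calls of these genes in that comparison are given below as a description and support nothing further.

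The study edited the X-inactivation centre, which holds the genes of the noncoding RNAs Xist and Tsix on the X, in E14Tg2a mouse embryonic stem (ES) cells. These are male (XY) cells of the 129/Ola strain, cultured feeder-free in serum plus leukemia inhibitory factor. Polyadenylated RNA was sequenced in 12 libraries. The first edited genotype is 40kb [Tsix-Xist], with 2 clones and 2 libraries of each, set against 2 wild-type libraries labelled for that set. The other is 70kb [Xite-Jpx], likewise with 2 clones and 2 libraries of each, set against 2 wild-type libraries of its own set. The labels give all groups the same parental line and medium. Column names of the count table, however, call wild type E14 in the 40kb set and E14.2 in the 70kb set. The sources used here do not explain this difference in name. The labels say that clones came from CRISPR or TALEN targeting for inversions or deletions, without saying which of these the alleles are. They also do not say whether the 2 libraries of a clone came from separate cultures, so p-values measure the spread between these libraries. The fit for alleles counts the 4 libraries of an allele as separate units, though they come from 2 clones. Most 40kb calls were lost with counts summed per clone, as given in the last section. The adjusted p-values and calls of allele against wild type below carry this limit.

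Libraries held 34514493 to 46605508 counts in genes. The first replicate of 40kb clone 1 stood apart: its mean correlation with the other libraries was 0.9534, whereas the other 11 lay between 0.9728 and 0.9838, and its values are given with and without it where they matter. The 40kb libraries also differed from their wild type in markers of other cell types. Over all tested genes 5.67% were called lower in 40kb cells. Of 11 tested fibroblast markers 8 were called lower. The summed level of the fibroblast markers was 10.6 to 46.4 CPM (each gene's counts scaled to a common library size) in 40kb cells and 269 to 351 CPM in their wild type. Of 10 tested trophoblast markers 6 were called lower, with sums of 45.1 to 135 CPM in 40kb cells and 522 to 636 CPM in their wild type. Of 10 tested primitive endoderm markers 2 were called lower, while 6 of the 10 had log2 fold changes above 0, at a median of 0.141. These 10 markers summed to 85.7 to 139 CPM in 40kb cells and 165 to 173 CPM in their wild type. The 10 ES cell markers summed to 6854 to 9258 CPM in 40kb cells and 5054 to 5844 CPM in their wild type. Of these 0 of 10 were called, where 6.43% of all tested genes were called in either direction. Such sums also varied widely in the 70kb set. Fibroblast markers summed to 49.6 to 568 CPM in 70kb cells and 81.5 to 307 CPM in their wild type. Trophoblast markers summed to 148 to 802 CPM in 70kb cells and 164 to 499 CPM in their wild type. For both lists the second replicate was above the first in each clone and in wild type of that set. The part of these marker differences in the myosin values was not tested. In such bulk RNA, fewer cells of a type and less RNA per cell cannot be told apart.

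The upstream sequences of Myo1f and Myo1g are shown because these genes had the highest 40kb levels relative to wild type and varied together across libraries. Each is the 250 bases before the gene's annotated start in RefSeq on GRCm38.p6, written 5′ to 3′ on the gene's strand. Capitals mark the single match to a set of 7 searched motifs.
Myo1f, chr17:33555457-33555706, plus strand: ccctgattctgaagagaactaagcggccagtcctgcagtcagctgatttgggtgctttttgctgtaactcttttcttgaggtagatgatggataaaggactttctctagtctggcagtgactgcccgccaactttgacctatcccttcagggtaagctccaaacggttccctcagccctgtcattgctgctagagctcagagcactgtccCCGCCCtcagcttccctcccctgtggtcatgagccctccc
Myo1g, chr11:6520959-6521208, minus strand: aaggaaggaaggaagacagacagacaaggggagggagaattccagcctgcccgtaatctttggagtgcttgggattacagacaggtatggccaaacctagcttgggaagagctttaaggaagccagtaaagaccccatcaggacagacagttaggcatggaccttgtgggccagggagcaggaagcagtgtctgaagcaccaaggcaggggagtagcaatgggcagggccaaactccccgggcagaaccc

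The motifs, searched on both strands, were the TATA box motif written TATAAA, the GC box GGGCGG, the ETS-type sites CCGGAAG and GAGGAAG, the E-box CACGTG, the GATA-factor site written GATAAG and the AP-1 site TGACTCA. The Myo1f stretch held a GC box, read as CCGCCC from 40 bases before the start, and the Myo1g stretch held none of the 7. A GC box was present in 32.7% of the 32851 RefSeq promoters of this length, so the match is a common one. The other shares were 12.4% for TATAAA, 6.91% for CCGGAAG, 10.6% for GAGGAAG, 6.02% for CACGTG, 6.55% for GATAAG and 4.46% for TGACTCA. Bases G and C made up 53.6% of the Myo1f stretch and 55.2% of the Myo1g stretch, close to the median of 52.4% over all promoters. Of the 7 genes, 6 had an entry in the promoter table, with 9 entries between them. No motif was shared by the Myo1f and Myo1g stretches.

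Myo1f (ENSMUSG00000024300.10, chromosome 17), the long-tailed class I myosin of neutrophils and mast cells, was at its highest in the 40kb cells. It had 26.3 and 11.5 CPM in the libraries of 40kb clone 1 and 21.4 and 12.1 CPM in those of 40kb clone 2, against 2.36 and 2.48 CPM in wild type of the 40kb set. The 4 edited libraries lay above both wild-type libraries. Myo1f had 9.43 and 6.15 CPM in 70kb clone 1 and 6.76 and 3.85 CPM in 70kb clone 2, against 9.74 and 6.94 CPM in wild type of the 70kb set. Those groups overlapped, and 3 of the 4 edited libraries lay below both wild-type libraries.

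The order of the group means of Myo1f was 40kb, wild type of the 70kb set, 70kb, and wild type of the 40kb set. The means were 17.8 ± 7.24 CPM in 40kb cells (SD, n = 4) and 2.42 ± 0.0863 CPM in their wild type (SD, n = 2). In the other set they were 6.55 ± 2.29 CPM in 70kb cells (SD, n = 4) and 8.34 ± 1.98 CPM in their wild type (SD, n = 2). Adjacent means of 8.34 and 6.55 CPM differed by less than their spread. The log2 fold change of 40kb cells over their wild type was 2.88 (SE 0.44), which is 7.37-fold higher.

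Myo1g (ENSMUSG00000020437.6, chromosome 11), the short-tailed class I myosin of lymphocytes, where it contributes to membrane tension, followed a similar order. It had 13.98 and 6.21 CPM in 40kb clone 1 and 8.14 and 6.12 CPM in 40kb clone 2, against 1.60 and 1.70 CPM in wild type of the 40kb set. Every 40kb library was above both of its wild-type libraries. It had 5.69 and 2.22 CPM in 70kb clone 1 and 3.38 and 2.21 CPM in 70kb clone 2, against 5.22 and 1.30 CPM in wild type of the 70kb set. In that set 3 of the 4 edited libraries lay within the span of the wild-type pair.

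The group means of Myo1g were 8.61 ± 3.70 CPM in 40kb cells (SD, n = 4) and 1.65 ± 0.0658 CPM in their wild type (SD, n = 2). They were 3.38 ± 1.63 CPM in 70kb cells (SD, n = 4) and 3.26 ± 2.77 CPM in their wild type (SD, n = 2). The last 2 of these could not be ordered beyond their spread. The log2 fold change of 40kb cells over their wild type was 2.38 (SE 0.60), or 5.22-fold higher. Without the first replicate of 40kb clone 1, the log2 fold change was 2.62 for Myo1f, which was still called, and 2.04 for Myo1g, which was not.

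**Figure D1:**
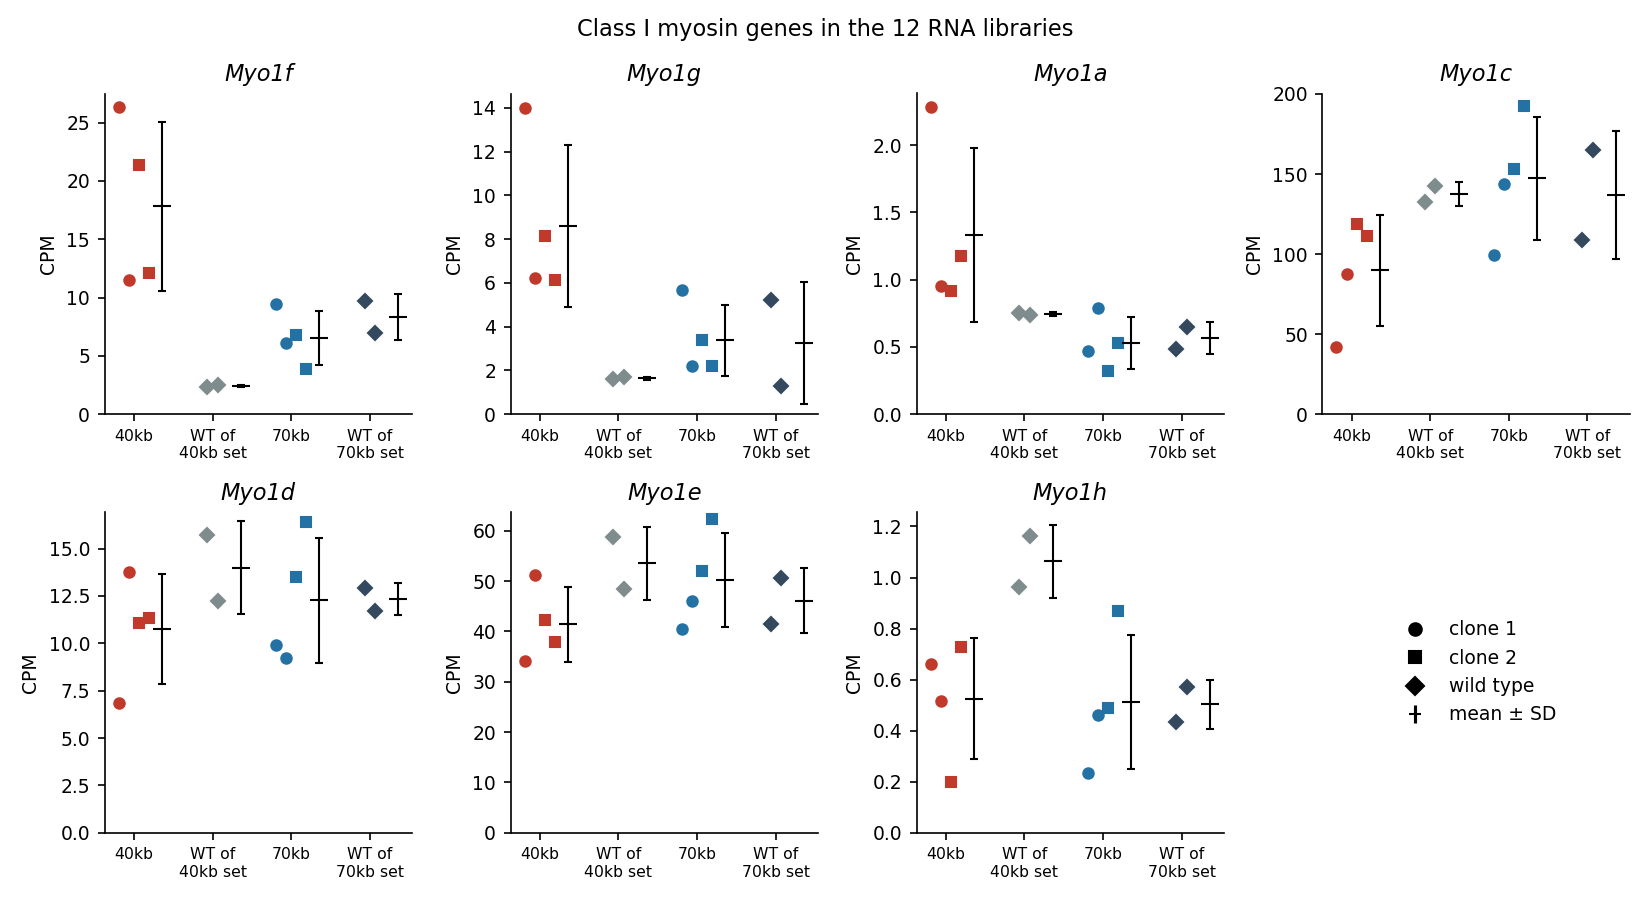
Level of each class I myosin gene in CPM (linear axes from 0) in the 12 RNA libraries, grouped as 40kb, its wild type, 70kb and its wild type, with circles for clone 1, squares for clone 2, diamonds for wild type, and a bar for the mean ± SD beside each group. The 4 Myo1f points of 40kb cells lie between 11.5 and 26.3 CPM and the 2 of their wild type at 2.36 and 2.48 CPM, whereas in the 70kb set the groups overlap for every gene.

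Among the other members, Myo1a, a motor of the microvilli of the gut brush border, had low counts, from 12 to 100 per library. Its levels were 2.28 and 0.950 CPM in 40kb clone 1 and 0.915 and 1.17 CPM in 40kb clone 2, compared with 0.756 and 0.734 CPM in their wild type. All 4 edited libraries were above the wild-type pair, at a log2 fold change of 0.84 (SE 0.44), and the value without the first replicate of clone 1 was 0.43. The 70kb libraries had 0.471 and 0.786 CPM for clone 1 and 0.325 and 0.527 CPM for clone 2, and their wild type had 0.483 and 0.650 CPM.

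Myo1c, a widely expressed motor that helps deliver glucose transporter vesicles in fat cells and tunes tension in hair cells of the ear, was lower in 40kb cells. It had 42.1 and 87.3 CPM in 40kb clone 1 and 119 and 111 CPM in 40kb clone 2, against 132 and 143 CPM in their wild type. The groups did not overlap, and the difference was wider in clone 1, with an overall log2 fold change of −0.62 (SE 0.34). That value was −0.39 without the first replicate of 40kb clone 1. In the other set Myo1c had 99.3 and 144 CPM in 70kb clone 1 and 153 and 193 CPM in 70kb clone 2, against 109 and 165 CPM in wild type, so those groups overlapped.

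Myo1d, whose fruit fly counterpart sets the left-right handedness of organs, had 6.83 and 13.8 CPM in 40kb clone 1 and 11.1 and 11.3 CPM in 40kb clone 2, against 15.7 and 12.3 CPM in their wild type. Here the 40kb and wild-type ranges overlapped, at a log2 fold change of −0.38 (SE 0.28). Myo1d had 9.93 and 9.24 CPM in 70kb clone 1 and 13.5 and 16.4 CPM in 70kb clone 2, against 12.9 and 11.7 CPM in wild type. The libraries of 70kb clone 1 were below, and those of 70kb clone 2 above, both wild-type libraries. How many tested genes share this pattern was not counted.

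Myo1e, a long-tailed relative of Myo1f that works in kidney podocytes and at the leading edge of crawling cells, had 34.0 and 51.2 CPM in 40kb clone 1 and 42.4 and 37.9 CPM in 40kb clone 2, against 58.7 and 48.4 CPM in wild type. The ranges overlapped through 1 edited library, and the log2 fold change was −0.37 (SE 0.19). The 70kb libraries had 40.5 and 46.0 CPM of Myo1e for clone 1 and 52.0 and 62.3 CPM for clone 2, and their wild type had 41.6 and 50.6 CPM. In the 40kb set the Myo1e range thus met that of wild type, whereas the range of its long-tailed relative Myo1f did not.

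Myo1h, a short-tailed member, was the sparsest, with 8 to 46 counts per library. It had 0.663 and 0.516 CPM in 40kb clone 1 and 0.198 and 0.727 CPM in 40kb clone 2, against 0.962 and 1.16 CPM in their wild type. All 4 edited libraries lay below the wild-type pair, at a log2 fold change of −1.01 (SE 0.49), or 2.02-fold lower. Myo1h had 0.236 and 0.461 CPM in 70kb clone 1 and 0.487 and 0.869 CPM in 70kb clone 2, against 0.435 and 0.572 CPM in wild type. The gene overlaps Kctd10, a protein-coding gene with a mean of 57.0 CPM, and the sources used here do not give the strand setting of the counting, so the Myo1h counts are uncertain.

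Over the 7 genes, 2 passed an adjusted p of 0.05 in the 40kb comparison, both higher, where edgeR called 6.43% of all tested genes in either direction, 0.763% as higher and 5.67% as lower. The 40kb libraries did not overlap their wild type for 5 of the 7 genes, 3 above and 2 below, where 36.2% of all tested genes did not overlap, 16.4% as higher and 19.7% as lower. These counts come from the comparison that chose the genes and are given as a description. The median log2 fold change over the 7 was −0.371, against 0.0624 over all tested genes. In both Myo1f and Myo1g the 4 libraries of 40kb cells were also above the other 8 libraries, which held for 2.16% of tested genes.

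The size of the 40kb difference depended on the wild-type set it was measured against. Wild type of the 40kb set was 3.44-fold lower in Myo1f than wild type of the 70kb set, and 1.98-fold lower in Myo1g. The set and the column name of its wild type, E14 or E14.2, cannot be told apart here. In Myo1f the wild-type pairs did not overlap, a state shared by 40.2% of tested genes. Against wild type of the 70kb set, 40kb cells had log2 fold changes of 1.10 for Myo1f and 1.40 for Myo1g, and neither was called. In Myo1h the difference of 40kb cells disappeared against the other wild type, with a log2 fold change of 0.06, since wild type of the 40kb set was 2.11-fold higher than wild type of the 70kb set. The Myo1f call was also lost when either wild-type library of the 40kb set was left out, at log2 fold changes of 2.84 and 2.91, as it was for Myo1g at 2.34 and 2.42. No gene of the table was called by edgeR in those 2 fits, where 2637 and 1968 genes had an unadjusted p under 0.05.

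Column names of the count table carry a code beginning with B, which the sources used here do not explain. The second replicates of both 40kb clones share their codes with the wild-type libraries. Within code B2, Myo1f had 11.5 CPM in 40kb cells and 2.36 CPM in wild type, which is 4.87-fold. Within code B6 it had 12.1 CPM in 40kb cells and 2.48 CPM in wild type, which is 4.89-fold. For Myo1g the ratios were 3.88-fold in B2 and 3.61-fold in B6. The highest 2 libraries of both genes, the first replicates of the 40kb clones, carry codes that no wild-type library has, so the excess of those libraries over the second replicates cannot be told apart from the code.

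**Figure D2:**
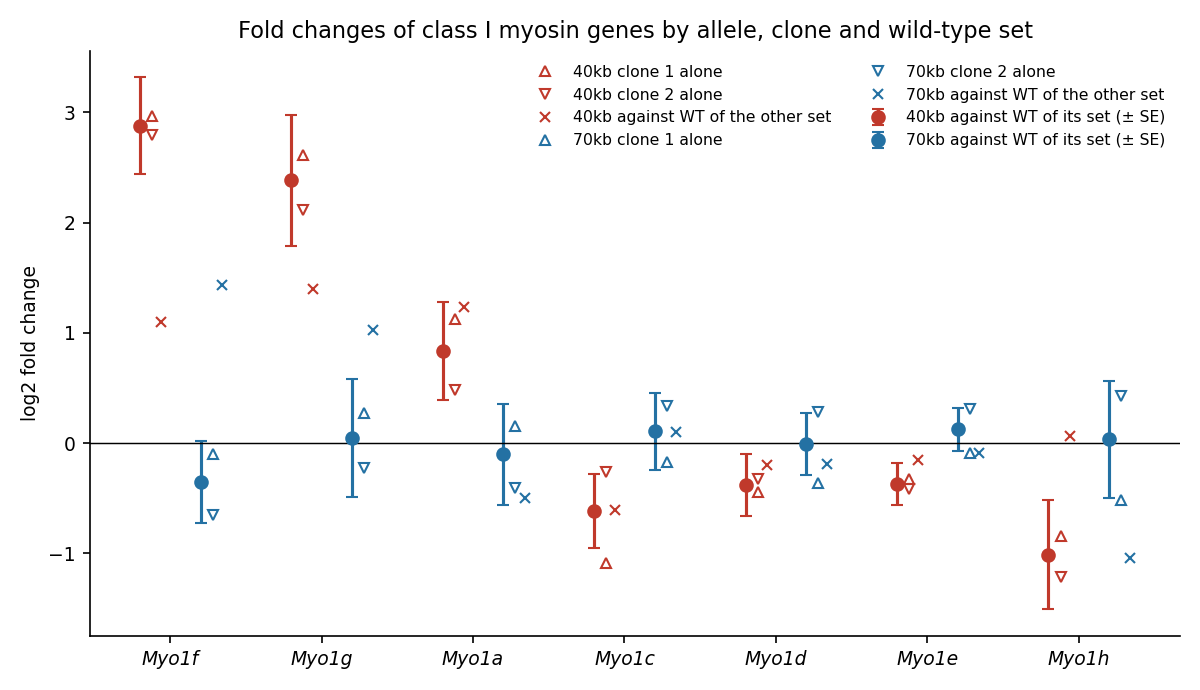
Log2 fold changes of the 7 genes, in red for 40kb and blue for 70kb: filled circles with bars of ± 1 SE are each allele against wild type of its own set, open triangles are each clone alone, and crosses are the allele against wild type of the other set. Myo1f in 40kb cells is at 2.88 against its own wild type and at 1.10 against the other wild type, whereas in 70kb cells it is at −0.35 and 1.43.

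The 70kb allele gave a comparison that the choice of the genes did not use. None of the 7 genes was called, of 0% called over all tested genes, and the ranges of 70kb cells and their wild type overlapped for all 7, where 5.48% of tested genes did not overlap. The log2 fold change of 70kb cells over their wild type was −0.35 for Myo1f (95% interval −1.16 to 0.45) and 0.05 for Myo1g (95% interval −1.11 to 1.20). The other 5 genes had log2 fold changes between −0.10 for Myo1a and 0.12 for Myo1e, with an adjusted p of 1.00 for each of the 7 (edgeR quasi-likelihood test, Benjamini-Hochberg adjustment). Their 95% intervals were narrowest for Myo1e, at −0.30 to 0.55, and reached −1.12 to 1.19 for Myo1h. Over all tested genes the 70kb comparison had 0 calls in edgeR and 3 in DESeq2, while 100 genes had an edgeR p under 0.05 before adjustment. The difference between the effects of the 40kb and the 70kb allele was not tested, as each allele has a wild type of its own.

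Against wild type of the 40kb set, 70kb cells had log2 fold changes of 1.43 for Myo1f and 1.03 for Myo1g, opposite to or above those against their own wild type. For Myo1h the value against that other wild type was −1.04. None of these was called, and the choice of wild type moved these 3 genes more than the 70kb allele did.

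The clones of an allele were compared with each other as a second measure outside the choice of the genes. In 40kb cells, clone 1 and clone 2 were close in Myo1f, at means of 18.9 and 16.8 CPM, with a log2 difference of 0.17 (95% interval −0.74 to 1.09, adjusted p = 0.844, edgeR). For Myo1g they were at 10.1 and 7.13 CPM, with a log2 difference of 0.50 (95% interval −0.80 to 1.81, adjusted p = 0.672, edgeR). The largest clone difference among the 7 genes was in Myo1c, 0.83 lower on the log2 scale in 40kb clone 1 (−0.83, SE 0.31). Its ranges did not overlap, as in 45.3% of tested genes, and its p of 0.0222 became 0.236 after adjustment in edgeR. In that comparison 11 genes were called in all, or 0.0661%. Without the first replicate of 40kb clone 1 the Myo1c difference was −0.40. Without the second, clone 1 was left with only the library that stood apart, assumed to vary like the other groups. Myo1c was then at −1.45 and called, as were 2914 of 17176 genes.

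In 70kb cells, Myo1c, Myo1d, Myo1e and Myo1h had both libraries of clone 1 below both of clone 2, a separation in either direction that 41.1% of tested genes had. The log2 differences of clone 1 over clone 2 were −0.51 for Myo1c, −0.64 for Myo1d, −0.40 for Myo1e and −0.95 for Myo1h. In the same comparison Myo1f was at 0.55 and Myo1g at 0.50, on the other side. None passed the test, and the lowest adjusted p was 0.514 for Myo1d (edgeR), with 2 genes called in all, or 0.012%. With the replicate number as a block 88 genes were called, again none of the 7, and the adjusted p of Myo1d was 0.406 (edgeR).

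The replicates of the 70kb set also moved the genes in opposite directions. The first replicate, code B13 in all 3 groups, was above the second, code B14, in Myo1f by log2 ratios of 0.62 in 70kb clone 1, 0.81 in 70kb clone 2 and 0.49 in wild type. For Myo1g the ratios were 1.36 in clone 1, 0.61 in clone 2 and 2.01 in wild type. Code B13 was below B14 in all 3 groups for Myo1a, Myo1c, Myo1e and Myo1h, by up to −0.97 for Myo1h in 70kb clone 1. Myo1d had no common direction. Of all tested genes, 21.8% were higher and 23.1% lower in B13 in all 3 groups, and no test was made of this split. In Myo1f and Myo1g the replicate ratios exceeded the log2 fold changes of the 70kb allele in all 3 groups.

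**Figure D3:**
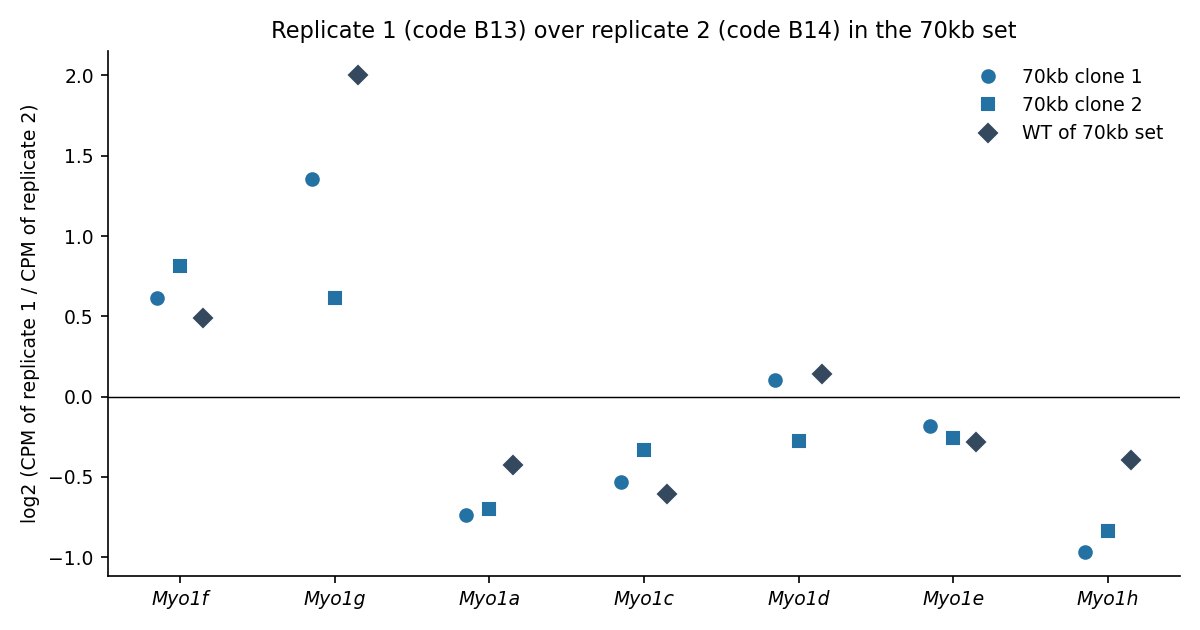
Log2 ratio of the CPM of replicate 1 (code B13) to replicate 2 (code B14) for each gene in 70kb clone 1 (circles), 70kb clone 2 (squares) and wild type of that set (diamonds). Myo1f and Myo1g lie above 0 in all 3 groups, at 0.49 to 2.01, and Myo1a, Myo1c, Myo1e and Myo1h lie below 0 in all 3.

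Across the 12 libraries, Myo1f and Myo1g had the closest profiles of any pair of members, with a Pearson r of 0.889 and a Spearman rho of 0.881 on log2 CPM. These correlations are descriptions, since the libraries share alleles, codes and wild-type sets, and both genes were picked for their rise in 40kb cells. Leaving out the 2 libraries farthest from the median gave an r of 0.825. Within sets r was 0.99 over the 6 libraries of the 40kb set and 0.623 over the 6 of the 70kb set. Of 12731 genes, Myo1f and Myo1g among them, 71 had an r with Myo1f at least as high as that of Myo1g. This count includes Myo1f itself.

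A second pair was Myo1d and Myo1e, with an r of 0.837 and a rho of 0.832, or 0.66 without the 2 farthest libraries. Within sets r was 0.909 in the 40kb set and 0.723 in the 70kb set. Between the 2 pairs the signs were negative: Myo1e had an r of −0.765 with Myo1f and −0.757 with Myo1g. Myo1c had an r of −0.814 with Myo1g and −0.696 with Myo1f, and it kept a negative sign in each set. The 7 genes thus did not vary as a block, and Myo1f and Myo1g were high where Myo1c and Myo1e were low.

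**Figure D4:**
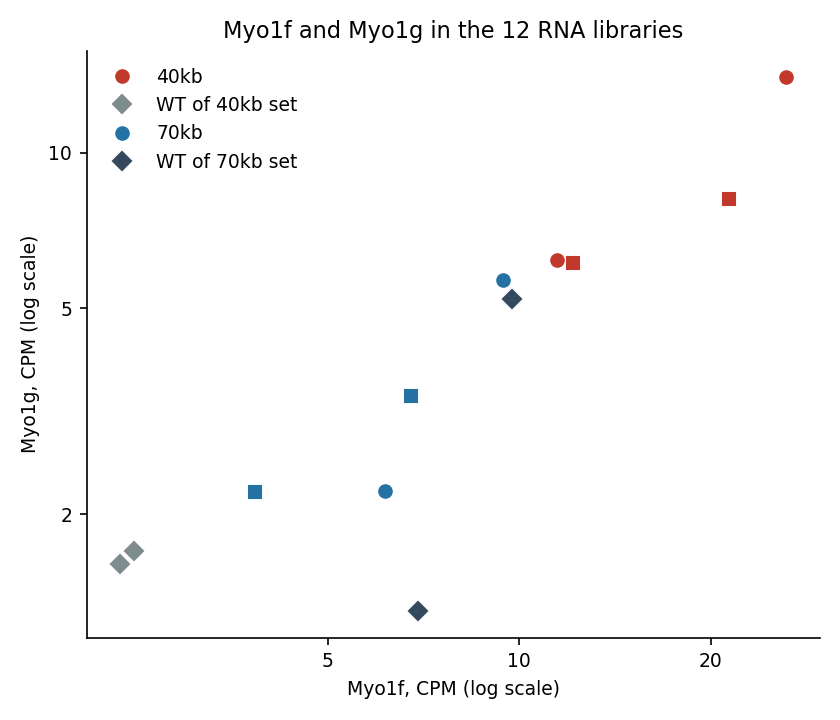
Myo1g against Myo1f in the 12 RNA libraries, in CPM on log axes, with circles and squares for clones 1 and 2 and diamonds for wild type. The 4 libraries of 40kb cells lie at the upper right, the 2 of their wild type at the lower left, and 1 wild-type library of the 70kb set has the lowest Myo1g at 1.30 CPM beside a Myo1f of 6.94 CPM.

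The 5 genes most like Myo1f over the 12 libraries, out of genes averaging 20 counts or more, were Rasa4, Slc5a11, Mpdu1, Fcgr2b and Pnpla3, with r between 0.942 and 0.956. Rasa4 encodes a Ras GTPase-activating protein, and averaged 20.8 CPM in 40kb cells and 9.14 CPM in their wild type. Fcgr2b, the inhibitory receptor for IgG of B cells and macrophages, averaged 4.70 CPM in 40kb cells and 1.34 CPM in their wild type. Within the 70kb set, r was 0.984 for Rasa4 and 0.864 for Fcgr2b. These 5 genes lie on chromosomes 1, 5, 7, 11 and 15, whereas Myo1f is on chromosome 17.

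The 5 genes most like Myo1g were Mkrn2, Anapc5, Cisd3, Csad and Slc47a1, with r between 0.955 and 0.976. Anapc5, a subunit of the anaphase-promoting complex, averaged 348 CPM in 40kb cells and 255 CPM in their wild type, a smaller ratio than that of Myo1g. Slc47a1, a transporter of organic cations, averaged 9.41 CPM in 40kb cells and 3.48 CPM in their wild type. Myo1f stood in neither list of 5, and the 2 lists shared no gene.

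The nearest tested protein-coding genes on either side of Myo1f and Myo1g were not called in 40kb cells. Genes that were not tested, or not matched by symbol, may lie between. Beside Myo1f on chromosome 17, Adamts10 had a 40kb log2 fold change of −0.20 (SE 0.30) and Zfp414 of 0.25 (SE 0.19). Beside Myo1g on chromosome 11, Ppia was at 0.23 and Ccm2 at −0.19. None of the 14 tested neighbours of the 7 genes was called in 40kb cells, where 6.43% of all tested genes were. These 14 are too few to be set apart from that share.

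Of 14 tested unconventional myosins outside the 7 genes, 0 were called higher and 1 lower in 40kb cells, near the 0.763% called higher and 5.67% called lower over all genes. That gene was Myo5b, a motor of recycling endosomes, at 1.82 ± 0.299 CPM in 40kb cells (SD, n = 4) and 5.10 ± 0.378 CPM in their wild type (SD, n = 2), or −1.48 on the log2 scale (adjusted p = 0.0411, edgeR).

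None of 10 class II myosin genes and light chains was called in either direction, against 6.43% of all tested genes in 40kb cells, at a median log2 fold change of −0.242 in 40kb cells. The most abundant of them, Myh9, the heavy chain of non-muscle myosin IIA, had 334 ± 130 CPM in 40kb cells (SD, n = 4) and 393 ± 25.2 CPM in their wild type (SD, n = 2). Myh10 (−0.88), Myh11 (−1.99), Myl9 (−1.98) and Myl12a (−0.64) had every 40kb library below both wild-type libraries, as did 19.7% of tested genes. The ranges of the others overlapped, and 2 of the 10 had log2 fold changes above 0. Of 4 tested calmodulin genes, which supply the light chains of class I myosins, 0 were called in 40kb cells. Calm2 had 440 ± 70.1 CPM in 40kb cells (SD, n = 4) and 418 ± 12.2 CPM in their wild type (SD, n = 2).

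Among 24 genes of the cortical actin machinery that class I myosins work with, 0 were called higher and 4 lower in 40kb cells, which is read against the 5.67% called lower over all genes. Tpm1, a tropomyosin that coats actin filaments, had 122 ± 38.1 CPM in 40kb cells (SD, n = 4) and 546 ± 62.0 CPM in their wild type (SD, n = 2), a log2 fold change of −2.16 (adjusted p = 0.0252, edgeR). Tpm4, another tropomyosin, was at −1.23 (adjusted p = 0.0473) and Actg1, cytoplasmic gamma actin, at −0.97 (adjusted p = 0.0326), both by edgeR. The fourth was Arpc5, a subunit of the Arp2/3 complex, at −0.79. Myo1f and Myo1g had the opposite direction to the 4 called actin genes. The first 2 were chosen for their rise and the 4 were named because they were called. Their opposite signs are therefore a description and support nothing further. In the 70kb comparison 0 genes of these 4 lists were called.

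Because Myo1f and Myo1g are known from blood cells, 18 haematopoietic markers were examined beside them. Tyrobp was at 0 in all libraries, Ptprc (CD45) reached at most 0.152 CPM, Csf1r 0.108 CPM and Hcls1 0.079 CPM, and 10 of the 18 stayed under 1 CPM in every library. Their summed level was 46.2 to 68.1 CPM in 40kb cells and 38.9 to 43.5 CPM in their wild type, with Laptm5 as the largest contributor, and the marker Was stood in this list and in the actin list. Without Laptm5, left out after its values were seen, the other 17 markers summed to 12.2 to 15.8 CPM in 40kb cells and 19.4 to 22.1 CPM in their wild type. This is the opposite order, and Runx1 had the largest difference in means among these 17. Of the 11 tested markers 4 had log2 fold changes above 0, at a median of −0.214. In 40kb cells 1 was called higher and 1 lower, where 0.763% and 5.67% of all tested genes were. Laptm5, a lysosomal membrane protein of blood cells, was called higher at 40.6 ± 8.93 CPM in 40kb cells (SD, n = 4) and 20.4 ± 5.15 CPM in their wild type (SD, n = 2), a log2 fold change of 0.99 (adjusted p = 0.0333, edgeR). Runx1, a blood transcription factor, was called lower at 0.642 ± 0.340 CPM in 40kb cells (SD, n = 4) and 5.56 ± 1.58 CPM in their wild type (SD, n = 2), at −3.12 (adjusted p = 0.0460, edgeR). In the 70kb set the sums were 47.2 to 59.0 CPM in edited cells and 45.8 to 46.2 CPM in wild type, with 0 of 11 tested markers called.

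For Myo1a, 9 markers of the gut brush border were examined, of which Fabp2 was at 0 and 5 stayed under 1 CPM in every library. They summed to 8.00 to 16.6 CPM in 40kb cells and 20.8 to 22.0 CPM in their wild type, the opposite direction to Myo1a. Espn had the largest difference in means, at 5.79 CPM in 40kb cells and 12.4 CPM in their wild type. Vil1 averaged 1.24 and 1.31 CPM in the same groups. Of 4 tested markers 1 was called lower in 40kb cells, where 5.67% of all tested genes were called lower. That marker was the keratin Krt20, at a log2 fold change of −2.83 (adjusted p = 0.0320, edgeR).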

How the data were processed

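RNA was measured in 12 libraries made with a stranded mRNA kit, per the labels' protocols. The deposited values are raw counts per GENCODE gene, and the authors named STAR, edgeR and the build mm9 in the submitters' processing notes. Versions and the strand setting are not given in the sources used here. The other 61 samples of the series hold other assays and were not used here.

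Counts were scaled by TMM, filtered with filterByExpr and tested with edgeR 4.0.16 (quasi-likelihood, Benjamini-Hochberg, adjusted p of 0.05) in R 4.3.3 with limma 3.58.1. The fit for alleles had 4 means (8 residual degrees of freedom, biological coefficient of variation 23.8%), and the fit for clones had 6 (6 degrees of freedom, 20.2%). CPM uses TMM library sizes, and log2 CPM for correlations adds a prior count of 2. DESeq2 1.42.0 was an alternative, beside other scalings, filters, wild types, a replicate block and libraries left out. Scripts were tested on simulated data. Depth limits Myo1a and Myo1h most.

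The members and gene lists were chosen with earlier results of these data known. Named genes are the 7 members, the 5 genes most like Myo1f and Myo1g, and from each list up to 3 called genes with the largest change or, with none called, the most abundant. Arpc5, Myh10, Myh11, Myl9 and Myl12a were named after their values were seen. No gene lengths were used, so levels are not compared between genes per length. Where a gene is called the sparsest, the most abundant or the largest contributor, this refers to counts or CPM. These, and the marker sums, are not adjusted for gene length. RefSeq promoters (GRCm38.p6) and gene neighbours were matched by symbol. Protein sequences were not used here.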

Additional observations from a re-analysis of the deposited data

Results flagged for a closer look

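Myo1d had its 70kb clones on opposite sides of wild type: both libraries of clone 1 (9.93 and 9.24 CPM) lay below both wild-type libraries (12.9 and 11.7 CPM), and both of clone 2 (13.5 and 16.4 CPM) lay above them. The log2 difference of clone 1 over clone 2 was −0.641. Libraries of the 70kb clones did not overlap each other in 41.1% of tested genes. The share of genes with the clones on opposite sides of wild type was not counted, so the pattern may be a common one. The opposite direction of the clones against wild type was not itself tested; the direct test between the clones had an adjusted p of 0.514 (edgeR).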

How the results depend on the processing

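In the 40kb comparison, which chose the genes, the log2 fold change over 23 alternatives ranged from 1.10 to 3.04 for Myo1f (called in 20) and from 1.40 to 2.61 for Myo1g (called in 14), as a description only. Besides the losses given above, Myo1g was not called without the first (2.04) or second (2.51) library of 40kb clone 1, without the first of 40kb clone 2 (2.41) or of 70kb clone 2 (2.37), with counts summed per clone (2.41), or in clone 2 alone (2.11). Myo1c was called in 40kb clone 1 alone (−1.09), and its 40kb clone difference without the low-count filter (−0.84). Myo1h of 40kb cells was at 0.062 against the other wild type.

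In the 70kb comparison, where values lie near 0, signs turned in Myo1d with a mean of at least 50 counts (0.000535), summed per clone (0.00238) and in clone 2 alone (0.28), and in Myo1h under the replicate block (−0.00620). Against the other wild type they turned in Myo1e (−0.092), Myo1f (1.43) and Myo1h (−1.04), and against all 4 wild-type libraries in Myo1f (0.28) and Myo1h (−0.60). In clone 1 alone they turned in Myo1a (0.16), Myo1c (−0.17), Myo1e (−0.091) and Myo1h (−0.52), and in clone 2 alone in Myo1g (−0.22). With 1 library left out, the 70kb values spanned −0.36 to 0.13 for Myo1a, −0.17 to 0.44 for Myo1c, −0.18 to 0.11 for Myo1d, −0.012 to 0.27 for Myo1e, −0.63 to 1.37 for Myo1g and −0.34 to 0.27 for Myo1h. The 40kb clone differences spanned −0.13 to 1.12 for Myo1a, −0.72 to 0.30 for Myo1d, −0.25 to 0.35 for Myo1e, −0.55 to 0.64 for Myo1f, −0.20 to 0.96 for Myo1g and −0.30 to 1.56 for Myo1h, and the 70kb clone difference of Myo1g spanned −0.33 to 1.03.

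The 1070 genes called in 40kb cells became 1874 in DESeq2, 367 with the replicate block, 3 with counts summed per clone, 0 against the other wild type (2134 at an unadjusted p under 0.05 in edgeR), 2476 in clone 1 alone and 530 in clone 2 alone, and 0 to 1511 with 1 library left out: 0 without either wild type of its set, 527 and 277 without the first or second library of 40kb clone 1, 279 without the first of 40kb clone 2 and 592 without the first of 70kb clone 2. The 0 genes of the 70kb comparison stayed 0 with the replicate block and became 1 without the filter, 3 in DESeq2, 1 against all 4 wild-type libraries, 1 in clone 1 alone, and 0 to 1 with 1 library left out. The 11 genes between 40kb clones became 1317 without the filter and 562 in DESeq2, with 1 to 2914 on leaving out 1 library, the highest without the second of 40kb clone 1. The 2 between 70kb clones became 741 without the filter, 179 in DESeq2 and 88 with the replicate block, with 1 to 2 on leaving out 1 library. The cause of these shifts was not tested. Deviations of same-numbered libraries correlated by −0.0931 to 0.17 in the 40kb set and 0.211 to 0.675 in the 70kb set, where numbers 1 and 2 carry the same codes in all 3 groups. The labels do not say that a number or code marks a shared batch, and each group has only 2, so the block was kept as an alternative, and it changed no call of the 7 genes.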
